A study of Homo sapiens with 8 samples.

Results

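Parental intervals lost in both persister states are stretches of H3K9me3 that were enriched in untreated PC9 cells and overlapped no enriched interval in either drug-treated state. They were chosen by overlap alone: a parental interval on chromosomes 1 to 22 was a member when it shared 0 bp with the persister list and 0 bp with the list of persisters given TSA. The rule found 6778 members among 23043 autosomal parental intervals, of 23842 in the whole parental list. Of the others, 12837 overlapped both treated lists, 1898 the DTP list only and 1530 the DTP + TSA list only.

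PC9 is an established human lung adenocarcinoma line that carries an activating EGFR mutation. Untreated cells are called parental. DTP, for drug-tolerant persisters, were the survivors of 8 days in 1 μM erlotinib, an EGFR kinase inhibitor, and DTP + TSA were survivors that also received 50 nM trichostatin A, a histone deacetylase inhibitor, for 5 hours. All 3 states come from the same line in the same medium, and each is represented by 1 H3K9me3 ChIP-seq library, for which the authors deposited an interval list on hg19. The treated lists were the longer ones, with 47866 intervals in DTP and 53000 in DTP + TSA.

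H3K9me3, trimethylation of lysine 9 on histone H3, marks constitutive heterochromatin. It is written by enzymes such as SUV39H1, SUV39H2 and SETDB1 and bound by HP1 proteins, and it covers centromeric repeats, many transposable elements and the clusters of KRAB zinc finger genes. Outside these places it also forms domains over silent genes that differ between cell types.

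As there was 1 library per state, the differences below could not be checked on replicates and carry no p-values. The 95% intervals of shares are exact (Clopper-Pearson) and cover counting error only, and the read depth behind the lists is unknown. They treat parental intervals as independent, although lost ones tended to follow each other along the chromosome, so they may be too narrow. "Lost" means that no interval was listed there in the treated cells: a level just under the calling threshold and the absence of the mark cannot be told apart. The mean signal of an interval is the authors' own value and was compared only within the parental list.

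The overlap rule removed a larger number of intervals than of bases. Members made up 29.4% of autosomal parental intervals (6778 of 23043, 95% interval 28.83 to 30.01) and 22.58% of their covered length (27.64 of 122.4 Mb). An interval was without DTP overlap in 36.1% of cases (8308) and without DTP + TSA overlap in 37.7% (8676). These counts are what the rule used, and nothing is read from them. In all, 52.25 Mb of parental H3K9me3 (42.68%) lay in neither treated list, and the members held 52.9% of it. The remaining 24.61 Mb was trimmed from intervals that stayed in part: those overlapped by both lists had a median of 91.67% of their bases covered by one treated list or the other. With equal numbers of the strongest intervals taken from each list, the members numbered 11878 (51.55% of the list), and among parental intervals above the median mean signal they numbered 1792 (15.42%).

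A treated interval lay within 1 kb of 319 members, with medians of 3400 bp in length and 7.114 in mean signal. On the other side of the rule, 34 intervals with at most 200 bp of overlap had medians of 3000 bp and 6.819. The median distance from a member to the nearest interval of either treated list was 11.2 kb, with 1.8 kb at the 10th percentile and 46.6 kb at the 90th. A total of 1874 members (27.65%) had a treated interval within 5 kb, and 589 (8.69%) had none within 50 kb.

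Members were short and low in signal. Their lengths ran from 200 bp to 34000 bp, with a median of 3400 bp and quartiles of 2400 and 5000 bp, against a median of 4200 bp (quartiles 2600 and 6600 bp) for intervals kept in both. The median mean signal was 6.938 (quartiles 5.914 and 8.329) against 9.383 (7.507 and 12.14) for those kept in both, and the median summit value was 14 against 23. The quartile ranges overlap in both measures, as the plot of lengths and signals by class shows. Intervals kept in 1 treated state lay between the classes lost and kept in both, at 7.453 for DTP only and 8.268 for DTP + TSA only. A longer interval has more bases at which to overlap, and the order of the lengths turned when an interval counted as kept only if at least 50% of it was covered: the medians were then 4000 bp for lost and 3600 bp for kept. The order of the signals stayed, at 7.11 against 9.781.

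**Figure D1:**
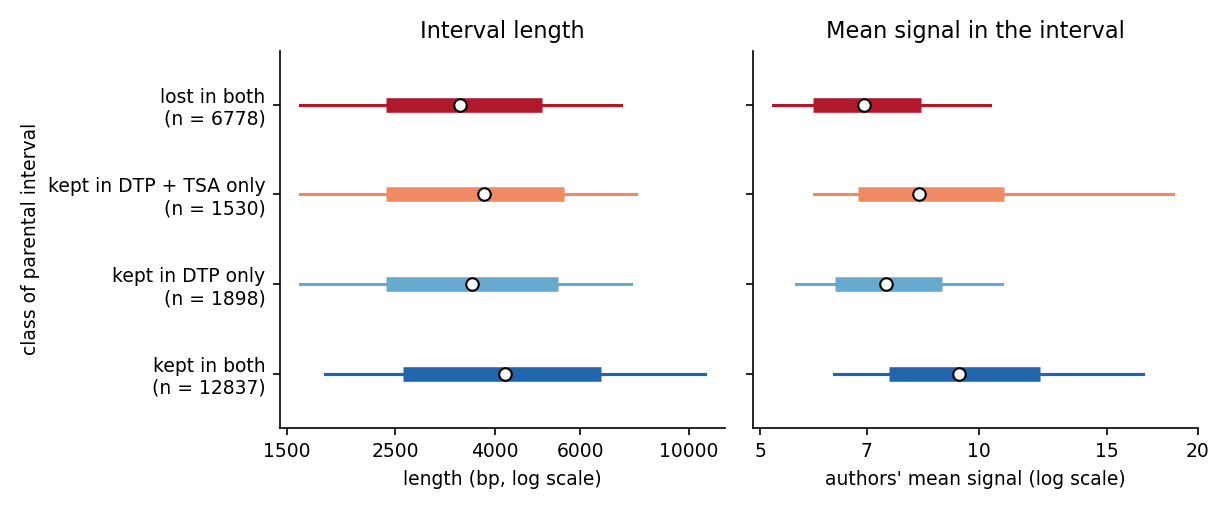
Length in bp and the authors' mean signal of parental intervals in 4 classes, both on log axes. Circles are medians, thick bars run between quartiles and thin lines from the 10th to the 90th percentile; the 6778 members have a median signal of 6.938 and the 12837 intervals kept in both 9.383.

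The share lost fell step by step over 5 parts of the list by mean signal. The parental list was split into 5 parts of equal number, with borders at 6.39, 7.573, 9.056 and 11.57. In the lowest part 54.11% (52.66 to 55.56) was lost, then 38.64%, 28.21% and 16.08%, and in the highest 10.03% (9.174 to 10.93). By length, 35.47% of intervals of up to 2 kb were lost, 33.26% of those of 2 to 4 kb, 26.93% of 4 to 8 kb, 19.94% of 8 to 16 kb and 5.405% of those over 16 kb. The fall with signal held within each of the 4 length classes up to 16 kb, from 61.1% to 19.31% in the shortest class and from 48.39% to 1.982% in that of 8 to 16 kb. Among domains over 16 kb the lowest part held 12 intervals with 1 member, so the order starts there at 8.333% (0.2108 to 38.48) and then runs from 31.91% down. None of the 307 domains over 16 kb with the highest signal was lost, for which the exact interval reaches up to 1.194%. Intervals of 5.8 to 6.2 kb were lost in 25.29% of cases (22.68 to 28.04), and those of flanking lengths in 27.65% (25.81 to 29.55), ranges that overlap.

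**Figure D2:**
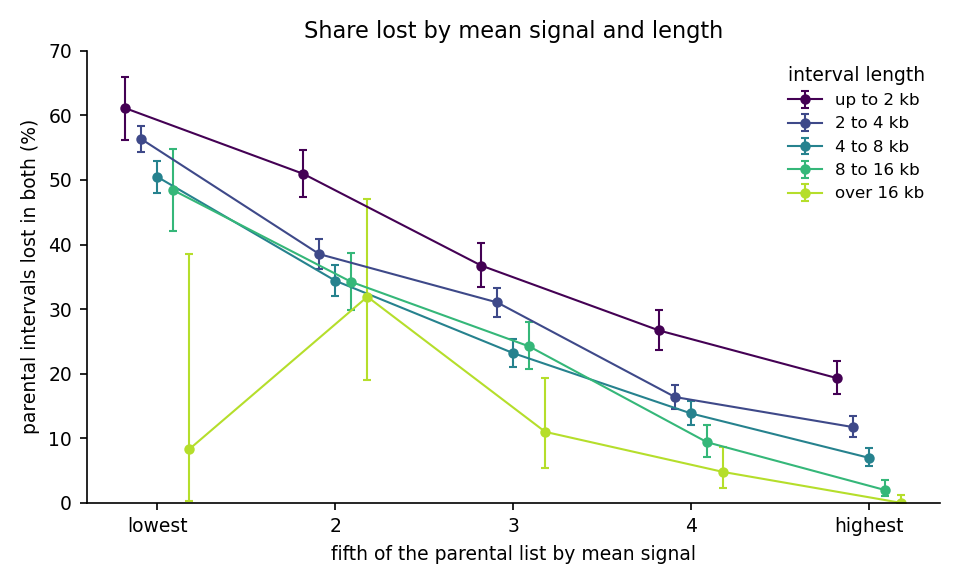
Percent of parental intervals lost in both treated states in 5 parts of the list by mean signal, for 5 classes of length. Bars are exact 95% intervals for counting error; the shortest class runs from 61.1% to 19.31%, and the longest ends at 0 of 307.

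Of the 5 longest members, 4 lay in grey or dark bands. The first was chr3:189008001-189042000 in 3q28 (34.0 kb, mean signal 10.0). 3q28 holds TP63, a transcription factor of basal epithelia. Next came chr2:224386401-224419600 in 2q36.1 (33.2 kb, 10.12), the band of the neural crest factor PAX3 and the ephrin receptor EPHA4. The third was chr7:55748201-55777000 in 7p11.2 (28.8 kb, 11.17), the band that also holds EGFR, the target of erlotinib. The others were chr11:79120401-79146400 in 11q14.1 (26.0 kb, 8.796), with the teneurin gene TENM4 in the same band, and chr1:115766001-115791800 in 1p13.2 (25.8 kb, 9.57). Their signals stood between the percentiles 57.02 and 77.75 of the parental list. Gene names here say only what a band contains. Genes were placed by band name and were picked after the bands were known, so no member is assigned to a gene.

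A small set of members was narrow and very strong. Mean signal was above 20 in 178 members and above 50 in 36, which lay on 17 chromosomes. The 36 were 2600 bp long and reached a summit of 175.5 in the median, and the median distance to the next parental interval was 67.3 kb, against 14.4 kb for members of 20 or less. Of the 178 members over 20, 38.2% lay within 5 Mb of a chromosome end, against 4.682% of the other members. A similar contrast held among intervals kept in both, at 43.09% of those over 20 and 9.58% of the others. The share lost was 30.22% up to a signal of 20, where all weaker intervals are pooled. It was 15.54% (13.25 to 18.05) from 20 to 50 and 12.33% (8.786 to 16.66) above 50. The highest of the 5 parts by signal, above 11.57 and with these intervals in it, lost 10.03% (9.174 to 10.93). The share from 20 to 50 was thus above that of the highest part as a whole, and the fall with signal did not go on above 20.

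The strongest member was chr7:150606001-150609200 in 7q36.1, with a mean signal of 164.6 and a summit of 745. 7q36.1 holds EZH2, the H3K27 methyltransferase, and the potassium channel gene KCNH2. It was followed by chr22:50774801-50780200 in 22q13.33 (147.5), the band of the synaptic scaffold gene SHANK3. The others were chr9:35913001-35914600 in 9p13.3 (116.6), chr9:135252001-135254200 in 9q34.13 (106.0) and chr7:16435201-16444000 in 7p21.2 (104.0), the band of the ETS factor ETV1. The nearest DTP interval to these 5 lay between 8.6 and 88.0 kb away, and the nearest DTP + TSA interval between 4.6 and 122.4 kb.

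Members were found on all 22 autosomes. The share lost was highest on chromosome 13 (36.11%, 32.76 to 39.57; 286 of 792), chromosome 18 (35.57%, 31.9 to 39.37) and chromosome 8 (34.44%, 31.69 to 37.28), and the intervals of these neighbours in the order overlap. It was lowest on chromosome 19 (11.65%, 9.486 to 14.11; 91 of 781), chromosome 22 (20.77%, 16 to 26.21) and chromosome 14 (24.6%, 21.41 to 28.01). By length the gap was wider: 3.153% of the 12.43 Mb of parental H3K9me3 on chromosome 19 was lost, against 32.59% of the 3.46 Mb on chromosome 13. Chromosomes 19 and 22 also had the highest median signals, 10.16 and 10.19. When the shares of the 5 parts by signal were averaged with equal weight, chromosome 22 stood at 27.06%, chromosome 19 at 15.89% and chromosome 20 was highest at 35.03%. Chromosome 19 was also lowest under each of the 3 other rules of overlap and numbers tried on this result, while the highest chromosome changed to 8 with the 50% rule and to 15 with equal numbers.

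**Figure D3:**
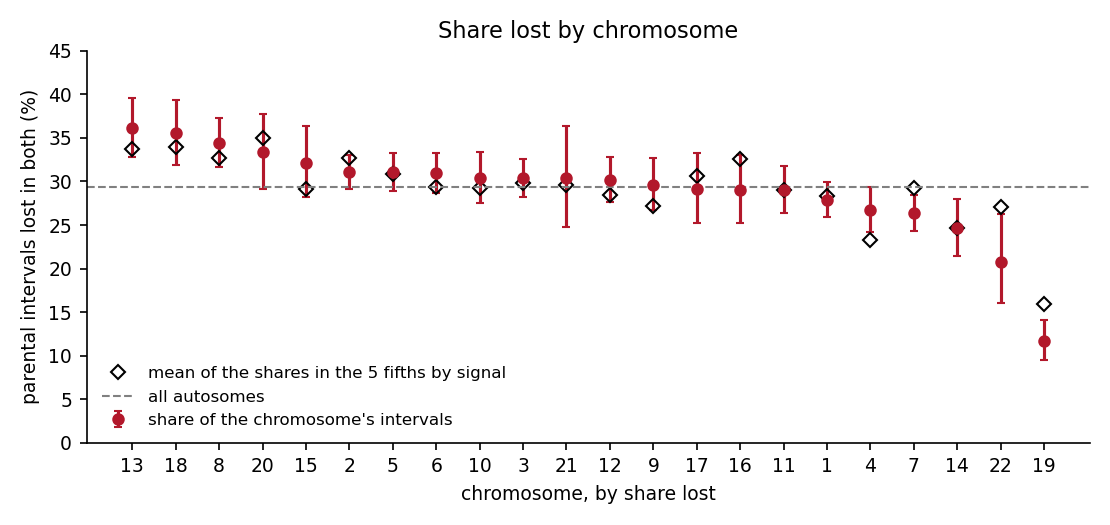
Percent of parental intervals lost in both treated states on each autosome, in falling order, with exact 95% intervals for counting error. Diamonds give the equally weighted mean of the shares in 5 parts by signal, and the dashed line the share over all autosomes; chromosome 19 is lowest by both measures, at 11.65% and 15.89%.

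Loss was less frequent near chromosome ends and near centromeres. Within 2 Mb of an end 11.01% (9.18 to 13.05) of parental intervals were lost, from 2 to 5 Mb 21.52%, from 5 to 10 Mb 30.4%, from 10 to 20 Mb 36.02% (34.37 to 37.7) and farther in 29.79%. Within 2 Mb of the centromeric bands the share was 18.9% (16.79 to 21.16), and in each class farther away it was 28.06% to 30.41%. By Giemsa stain, which is dark in gene-poor, AT-rich bands, 27.11% was lost in light bands (gneg) and 24.49% in the palest of the grey ones (gpos25). It was 34.29% in gpos50, 34.69% in gpos75 and 32.86% in gpos100. Centromeric bands (acen) had 14.86% (11.3 to 19.02). Light bands held 44.6% of the members. The shares by position and stain were not weighted by signal. Strong intervals lay more often near ends. Among intervals kept in both, 43.09% of those with a signal over 20 lay within 5 Mb of an end, against 9.58% of the others.

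Few intervals were lost in bands with many genes for C2H2 zinc finger proteins, a family of DNA-binding factors with many repressors. Families were counted as bands with at least 5 of their genes. In the 32 bands of this family 258 of 1795 parental intervals were lost, 14.37% (12.78 to 16.08), and in 0 of these bands did the share exceed that of all autosomes. The share was 12.08% in the zinc finger bands of chromosome 19 and 15.79% (13.69 to 18.08) in those of other autosomes, so it was not confined to chromosome 19. The other bands of chromosome 19 lost 8 of 94 intervals, 8.511% (3.746 to 16.08). The median parental signal in zinc finger bands was 9.747, and with equal weight to the 5 parts by signal the share was 17.98%.

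Olfactory receptor bands lost 20.6% (18.24 to 23.12; 226 of 1097), and 7 of 32 exceeded the share of all autosomes. Bands of solute carriers, membrane transporters, lost 18.85% (15.57 to 22.48), and those of cytochrome P450 enzymes 20.75% (14.74 to 27.89). At the other end stood the 3 bands of serpins, protease inhibitors, with 48.15% (34.34 to 62.16; 26 of 54), and the 4 bands of defensins, antimicrobial peptides, with 38.82% (31.03 to 47.05). The share of all autosomes was exceeded in 2 of the 3 serpin bands and 3 of the 4 defensin bands, so neither value holds for every band. Histone bands lost 38.57% and bands of UDP glucuronosyltransferases 35.09%, with ranges that include the share of all autosomes. So did those of keratin (27.78%), HOX (26.14%), HLA (23.33%), interferon (25.64%) and ADAM (38.46%) bands. The protocadherin band lost 14 of 79 intervals (17.72%, 10.04 to 27.94), and the band of late cornified envelope and SPRR genes, made in the outer skin, lost 4 of 36 (11.11%, 3.112 to 26.06). Equal weight to the 5 parts by signal moved the last to 18.48% and the interferon band to 14.6%. It also moved the solute carrier bands to 24.81% and the protocadherin band to 22.54%. The values were 21.88% for olfactory receptor, 21.97% for cytochrome P450, 44.67% for serpin and 36.42% for defensin bands.

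Among the 459 bands with at least 20 parental intervals the median share lost was 30%, with 12.22% and 47.25% at the 10th and 90th percentiles. In 39 of them at least 50% was lost. The highest was 3p14.2, the band of the fragile-site gene FHIT and of PTPRG, with 37 of 55 intervals lost (67.27%, 53.29 to 79.32). It was followed by 20p12.2 with 64.86%, which holds the Notch ligand JAG1, and by 10p13 with 63.64%. The shares were 62.5% in 11q24.1, 61.9% in 9q22.2 and 60.27% (44 of 73) in 17q24.3, the band of SOX9, a transcription factor of cartilage and lung epithelium. 13q13.2 and 11p15.2, the band of SOX6, stood at 60% each. The exact intervals of these 8 bands overlap, so their order is not fixed by the counts. Median parental signals in the 8 bands ran from 6.12 to 7.614, below the 8.249 of all autosomal intervals. Shares of bands were not weighted by signal. The lowest 3 lost none: 19q11 (0 of 26), 1p11.2 (0 of 23) and 19p13.11 (0 of 20), where exact intervals reach 13.23%, 14.82% and 16.84%. Their median signals were 5.896, 15.52 and 14.2.

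A lost interval was followed by another lost one more often than an overlapped interval was. The next parental interval along the chromosome was itself lost after 2623 of 6778 members, 38.7% (37.54 to 39.87), and after 25.58% (24.91 to 26.26) of overlapped intervals. The contrast was widest between close neighbours. At a gap of up to 5 kb the shares were 50.75% and 23.06%, at 5 to 20 kb 44.01% and 28.7%, at 20 to 100 kb 36.93% and 26.39%, and beyond 100 kb 29.0% and 24.24%. After members the next interval was in the lowest part by signal in 1587 of 6778 cases and in the highest in 989. After overlapped intervals these were 3020 and 3602 of 16243. Within each part by the next interval's signal the contrast was present, from 62.57% against 49.7% in the lowest to 13.65% against 9.078% in the highest. The signal of the first interval was not held fixed, so a role of shared signal was not tested. The share after a member was the higher one on 22 of 22 chromosomes, least clearly on chromosome 19 (14.29%, 7.832 to 23.19, against 11.32%).

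Most runs of lost intervals were short. Consecutive members formed 4155 runs, of which 2692 were single intervals that held 39.72% of members. Runs of at least 5 numbered 123 on 20 chromosomes, with 753 members (11.11%) and 12.48% of the lost length. Within 1-Mb tiles counted from the first base of each chromosome, 2003 tiles held the midpoint of a member, which sets its tile in every count of intervals. The longest run in the tile was 1 interval in 1031 of them, 2 in 511 and at least 3 in 461, of which 90 had a run of at least 5. A tile with members had a median of 2 runs and at most 13.

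The 5 runs with the most members spanned 101 to 344.0 kb and held at most 6.4 kb of DTP and 9.6 kb of DTP + TSA coverage. A run of 14 members lay at chr3:61836601-62155600 in 3p14.2. Its intervals summed to 54.6 kb in a span of 319.0 kb, where DTP had no interval and DTP + TSA 1 of 1.2 kb. Just beside it, at chr3:61715601-61816600, a run of 11 summed to 46.6 kb in 101 kb, with no interval in either treated list. Median signals in these runs were 5.106 and 5.933, below the 6.938 of all members. A run of 10 at chr12:76159201-76328000 in 12q21.2 held 60.6 kb, against 0.8 kb in DTP and 2.0 kb in DTP + TSA. Another run of 10 at chr6:14399401-14743400 in 6p23 held 46.8 kb, against 6.4 and 9.6 kb. The fifth, with 9 members at chr15:39414801-39535200 in 15q14, held 53.2 kb, against 4.2 and 4.0 kb. 15q14 contains THBS1, a secreted matrix protein. A run by definition holds no overlapped parental interval, so low treated coverage is in part what defined it. Not all long runs were of this kind. Of 3 more runs of 9, ranked lower by lost length and looked at after their values were seen, that in 5q32 spanned 1191 kb and held 38.8 kb of members beside 35.4 kb of DTP and 23 kb of DTP + TSA coverage. That in 4p13 spanned 1516 kb, with 22 kb of members beside 16.8 and 16.4 kb.

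The loss was spread widely, and a few megabases did not carry it. Of 2656 tiles with parental H3K9me3, 2005 (75.49%) held lost length, which was divided at tile borders. The tile with the most held 0.8176% of all lost length, the first 10 tiles 4.721% (1.305 Mb), and the first 100 tiles, on 22 chromosomes, 25.02%. It took 312 tiles (11.75%) to reach 50% of the lost length. The length of intervals kept in both, ranked by its own tiles, needed 298 (11.22%). The first 1% of tiles held 9.916% of lost and 17.68% of kept length, and the first 10% held 45.78% and 47.7%. The order of the last pair depended on the settings. It turned without chromosome 19 (45.62% of lost and 41.7% of kept length), among intervals above the median signal (57.22% and 53.89%), with a gap of 5 kb allowed (47.08% and 46.63%) and in tiles of 500 kb (51.99% and 50.93%). With equal numbers of intervals it widened to 38.54% and 57.77%.

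By number of intervals, the first 10% of tiles held 38.12% of members and 29.16% of intervals kept in both. These shares are not like measures, since there were 6778 members and 12837 intervals kept in both over the same tiles. Scatter of counts alone gives a sparser set a larger share in its top tiles. Whether members were more concentrated by number than kept intervals was therefore not tested. The 103 tiles with at least 10 members held 19.84% of them, and no tile held more than 24. In the 909 tiles with at least 10 parental intervals the median share lost was 30%, from 6.667% at the 10th percentile to 54.55% at the 90th. At least 50% was lost in 154 of these tiles, and none in 56. Of 2306 tiles with at least 3 parental intervals 12 lost every one, and none of these 12 had held more than 7.

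**Figure D4:**
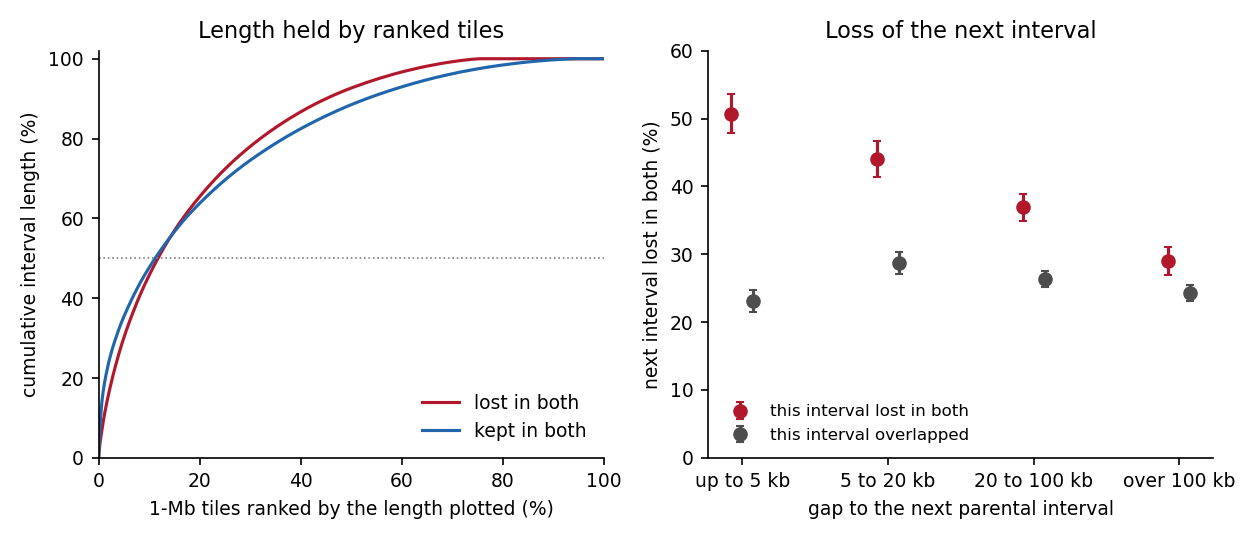
Left, cumulative percent of interval length against the percent of 1-Mb tiles, ranked separately for members and for intervals kept in both; 11.75% and 11.22% of tiles reach the dotted line at 50%. Right, percent of next parental intervals lost in both treated states, by the gap to them and by whether the first interval was itself lost, with exact 95% intervals; the shares are 50.75% and 23.06% up to 5 kb.

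In the 10 tiles with the most lost length both treated lists covered less than the parental one. The tiles were ranked by lost length, so this fall is in part what chose them. The tile chr3:189000001-190000000 in 3q28 held 226.0 kb in 19 members of 49 parental intervals, and its coverage as a whole went from 660.4 kb to 103.0 kb in DTP and 89.0 kb in DTP + TSA. Next came adjacent tiles of 8q24.21, the band of MYC and of the long noncoding RNA gene PVT1. Covered length went from 367.2 kb to 66.4 kb in DTP and 55.4 kb in DTP + TSA in chr8:128000001-129000000, and from 349.4 kb to 93.0 and 66.8 kb in chr8:129000001-130000000. The members there held 164.2 and 140.2 kb.

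In 7p14.1, which holds the activin subunit gene INHBA and the Hedgehog effector GLI3, chr7:41000001-42000000 went from 422.6 kb to 79.6 and 67.8 kb. Members held 126.6 kb of its parental length (29.96%), the lowest share of the 10 tiles. Intervals kept in both held 286.2 kb, more than either treated coverage, so much of the fall there was trimming of overlapped intervals. In 2q36.3, the band of the insulin receptor substrate IRS1, chr2:227000001-228000000 had the most members of any tile, 24 of 34 intervals, and went from 209.6 kb to 47.0 and 44.4 kb. The tile chr2:235000001-236000000 across 2q37.1 and 2q37.2 went from 238.2 kb to 74.0 and 88.6 kb. In 17q24.3 the tile chr17:69000001-70000000 lost 18 of 28 intervals and went from 147.2 kb to 27.4 and 31.0 kb. Members held 122.8 kb in the 2q36.3 tile, 118.4 kb in that across 2q37.1 and 2q37.2, and 92.8 kb in the 17q24.3 tile.

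The remaining 3 of these tiles fell less. They were chr18:71000001-72000000 in 18q22.3 (167.2 kb to 86.0 and 72.4 kb), chr1:115000001-116000000 in 1p13.2 (270.2 kb to 116.8 and 115.0 kb) and chr5:57000001-58000000 in 5q11.2 (295.0 kb to 143.0 and 123.4 kb), the band of the kinase gene MAP3K1. In 18q22.3 the members held 64.83% of the parental length, the highest share of the 10 tiles, and 55.2 kb of the DTP coverage lay where the parental list had none. The members' share was 38.19% in the 1p13.2 tile, 34.64% in that of 5q11.2 and 34.22% in the 3q28 tile. In the 3q28 tile such new coverage was 7.8 kb in DTP and 10.8 kb in DTP + TSA.

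**Figure D5:**
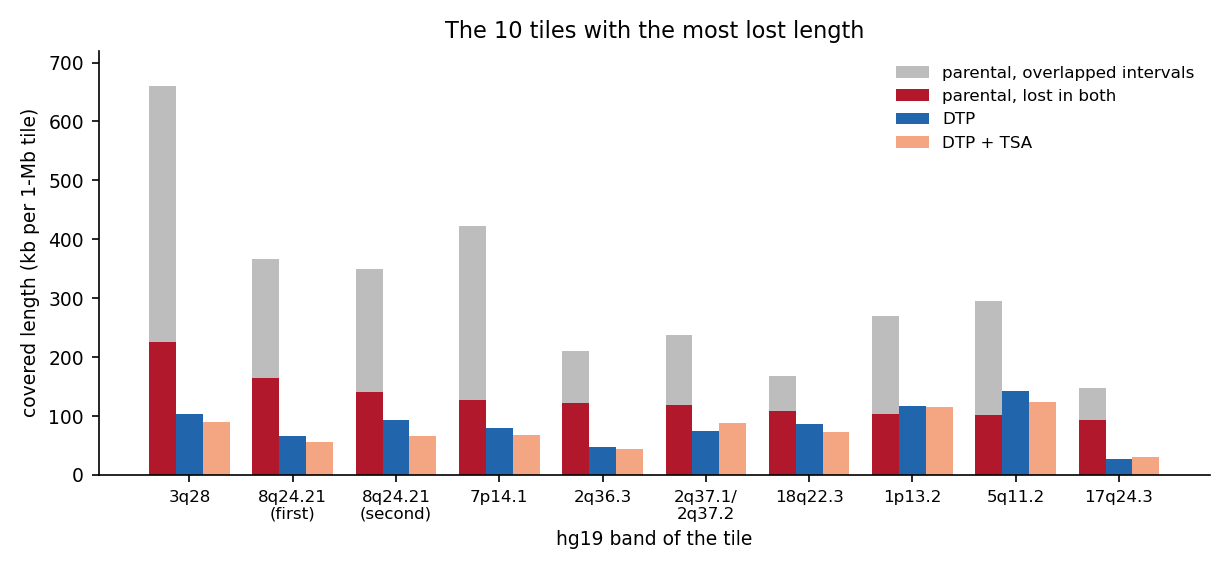
Covered length in kb of the 10 autosomal 1-Mb tiles with the most lost length, named by hg19 band. The left bar of each group is parental coverage, with the members in red, and the others are DTP and DTP + TSA; in 3q28 they stand at 660.4, 103.0 and 89.0 kb.

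Of 1627 tiles with at least 20 kb of parental coverage, 63 (3.87%) were at 50% of parental coverage or less in both treated lists, and 170 (10.4%) were at least 2-fold above it in both. The 63 tiles lay on 18 chromosomes, 9 of them on chromosome 2. They held 768 members and 15.61% of the lost length (4.316 Mb), beside 9.941 of the 122.4 Mb of parental length. Their coverage went from 9.941 Mb to 3.485 Mb in DTP and 3.024 Mb in DTP + TSA, the fall by which they were chosen. The 63 included 9 of the 10 tiles named above, all but that in 18q22.3, and 48 of the first 100. Those were ranked by lost length, which is not independent of low treated coverage. With equal numbers of the strongest intervals from each list the number of tiles that fell was 434.

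The tiles that fell formed 54 segments, 47 of them a single tile. The other 16 tiles (25.4% of the 63) adjoined another tile that fell, on either side. Of all tiles tested 3.87% fell, but that share counts each tile without its neighbours, so these are not like measures. The longest segment, of 4 tiles, was chr8:126000001-130000000. Its coverage went from 1075 kb to 299.8 kb in DTP and 246.8 kb in DTP + TSA, and 62 members held 445.6 kb. A pair of tiles at chr3:61000001-63000000, which spans both of the longest runs, went from 149.0 kb to 51.0 and 52.2 kb. The bands 3q28 and 8q24.21 together held 93 members and 2.847% of the lost length, and without them the share lost was 29.29%.

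The share lost differed little between tiles of low and high parental coverage. In tiles with up to 2% parental coverage 27.87% of intervals were lost, while the tiles as a group rose to 2.931 times their parental coverage in DTP. In tiles over 20% the share was 25.33%, or 29.99% (27.58 to 32.49) without chromosome 19, and coverage stood at 0.7225 times the parental level. Between these the share lost was 28.81%, 31.03% and 31.13%, with ratios of 1.637, 1.133 and 0.8676. Parental coverage both set the groups and is the divisor of the ratios, so the order of the ratios is in part set by the grouping. Without chromosome 19 the 5 shares ran from 27.99% to 31.48%. The first 100 tiles by lost length went from 17.7 Mb to 8.605 and 7.711 Mb, and all other tiles from 104.7 Mb to 148.1 and 165.0 Mb. The ranking by lost length in part sets this contrast.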

How the data were processed

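Of the 8 PC9 libraries in the series, the 3 H3K9me3 interval lists were used; the 2 H3K4me3 and 3 input libraries were not analysed here. BWA and SICER, and hg19 with dm3 as builds, are listed with no version, per the submitters' processing notes. Threshold, input and scaling were not given in the sources used here. Each interval has a summit and a mean value, the authors' signal, per the file headers, and a deeper library or another threshold would change which intervals are listed. Mean signals started at 3.55 (parental), 3.55 (DTP) and 3.59 (DTP + TSA), with medians of 8.22, 10.33 and 11.15. Interval borders followed 200 bp steps. Coordinates are 1-based on hg19.

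An overlap of at least 1 bp kept an interval. Members, gene families and other lists were chosen with earlier results of these data known. Named were the 5 longest and 5 strongest members, 10 tiles by lost length, 5 runs, 3 chromosomes at either end, and the 8 highest and 3 lowest bands. Runs followed the parental list along each chromosome; a run that crossed a tile border was split when counted per tile. The 15 families were defined by symbol in a GRCh38.p14 RefSeq table of 59675 genes, placed in GRCh38 bands and matched to hg19 by band name, so a family's value describes bands. Band tables came from circlize 0.4.16 under R 4.3.3. All other work was done in Python 3.11.15 (matplotlib 3.10.9, scipy 1.17.1, pandas 2.3.3, numpy 2.4.6). The shared functions for overlap, gaps, tiles, joining, the loss rule and exact intervals were tested on simulated inputs with known answers. They passed 124 of 124 checks. The code for runs, next intervals, bands and families was not tested in this way. Alternatives were other overlap rules, equal numbers of intervals, a signal minimum, joining, length and chromosome filters, and other tiles. No sequence is shown, since no hg19 genome was used here.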

Additional observations from a re-analysis of the deposited data

How the results depend on the processing

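Of 54 values recomputed under an alternative, 23 stayed within the interval of the reported value (or within 1.5 times a count), 26 moved and 5 changed direction. In 4 of the 5 the share of lost length in the top 10% of tiles came to exceed that of kept length, with a gap of 5 kb allowed (47.08% and 46.63%), above the median signal (57.22% and 53.89%), without chromosome 19 (45.62% and 41.7%) and in tiles of 500 kb (51.99% and 50.93%). For this share, with 13 alternatives, the interval was computed as if length were a number of members. It is therefore only a yardstick for what stayed or moved. Counting an interval as kept only if at least 50% was covered turned the order of lengths (4000 bp lost, 3600 bp kept); it gave a median signal of 7.11, 48.25% lost on the highest chromosome, 51.55% of next intervals lost after a lost one (33.22% after a kept one) and 47.63% of lost length in the top 10% of tiles. Allowing a gap of 5 kb gave 28.41%, 35.32% (17.51%) and 47.08% for the last 3 of these. Parental intervals above the median signal gave 1792 members of median length 3000 bp and signal 9.674, with 22.66% (14.12%) and 57.22%. Equal numbers gave 11878 members, 3600 bp, 7.243, 58.53%, 58.08% (44.68%), 38.54% and 434 fallen tiles. Joining within 5 kb gave 33.22% (24.06%) and 44.46%. Without intervals of 2 kb or less the values were 4000 bp, 6.73 and 37.2% (24.76%). Tiles of 500 kb gave 51.99% and 177 fallen tiles, tiles of 2 Mb 39.38% and 18. The removal of 3q28 and 8q24.21 and of intervals with a signal over 20 was chosen after seeing the data; the second gave a median signal of 6.864. In the alternatives run for these results (7 for signal and 8 for the next interval; chromosome filters and tiles were not among them, nor joining for signal), lost intervals had the lower median signal and were followed by a lost one more often than overlapped intervals were. No paired analysis was possible because each state had 1 library and the labels carry no replicate numbers. The depth is unknown, so weak intervals near the calling threshold limit each count.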
